A study of Rattus norvegicus with 8 samples.

Results

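The pro-death members of the Bcl2 family were examined in germ cells of prepubertal rats given doxorubicin, a cancer drug of the anthracycline class that breaks DNA by poisoning topoisomerase II. The set was a list of 10 gene symbols (Bax, Bak1, Bbc3, Bcl2l11, Bid, Pmaip1, Bmf, Bik, Bad and Hrk), looked up in the symbol column of a table of 24059 genes. A row was found for 9 of the 10, each symbol occurring in 1 row, and all 9 were among the 16976 genes with enough counts to be tested; Hrk was not analysed here. The 4 doxorubicin rats (numbers 2, 3, 6 and 8) received 5 mg/kg on postnatal day 6, and the 4 control rats (numbers 1, 4, 5 and 9) received vehicle. All 8 were Sprague-Dawley rats that carried the GCS-EGFP transgene, a fluorescent reporter of germ cells, and the GFP-positive cells of the testis were collected 24 h after dosing. The labels name the cells germ cells and also carry the cell line entry SSC, and only RNA with an integrity number above 8 was sequenced. Each library came from the polyA RNA of 1 rat and held between 41253790 and 58871000 estimated counts. Abundances are given in CPM, a count scaled to its library's size and composition (TMM). They are not corrected for transcript length and are therefore compared between rats and not between genes.

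Apoptosis through the mitochondria is decided by the balance among Bcl2 family proteins. The effectors Bax and Bak1 form pores in the outer mitochondrial membrane, and the survival proteins such as Bcl2 and Mcl1 hold them in check. The BH3-only proteins, which carry only the short BH3 motif of the family, either block the survival proteins or act on the effectors themselves. Bbc3 (PUMA), Pmaip1 (NOXA) and Bax are textbook target genes of the transcription factor p53, which is activated by DNA damage, and Bbc3 is a known mediator of germ cell death after DNA damage in mice.

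Promoter windows were available for 7 of the 10 listed genes, Bad, Bak1, Bcl2l11, Bid, Bmf, Hrk and Pmaip1. None was available for Bbc3, Bax or Bik. Stretches of 100 bases upstream of the start of 3 of them are shown from RefSeq (build GRCr8), because Pmaip1 and Bcl2l11 had higher values in every treated rat and Bak1 did not. Pmaip1 is at chr18:62255760-62255859 on the plus strand, Bcl2l11 at chr3:135819924-135820023 on the plus strand and Bak1 at chr20:5111012-5111111 on the minus strand. Each is written 5′ to 3′ along the gene, and capitals mark the 20 letters of the window closest to 2 adjoining copies of the 10-letter p53 element, a pattern that reads the same on both strands.
Pmaip1: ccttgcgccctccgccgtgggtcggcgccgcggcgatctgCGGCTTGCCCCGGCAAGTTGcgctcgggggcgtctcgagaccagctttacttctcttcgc
Bcl2l11: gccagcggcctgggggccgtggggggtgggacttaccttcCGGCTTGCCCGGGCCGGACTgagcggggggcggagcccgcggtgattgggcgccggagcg
Bak1: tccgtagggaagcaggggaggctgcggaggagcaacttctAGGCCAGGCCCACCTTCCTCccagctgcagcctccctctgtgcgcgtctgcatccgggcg

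The capitals in Pmaip1 began 170 bases before the gene start and departed from the p53 pattern at 3 letters, and 6.18% of all 33470 windows of 300 bases held a stretch at least as close. In Bcl2l11 the closest stretch departed at 4 letters, as close or closer in 29.7% of windows, and in Bak1 at 5 letters (76.2% of windows). In the windows not shown, it departed at 5 letters in Bad and at 6 letters in Bid, Bmf and Hrk (98.6% of windows). Whether closeness to the pattern goes with a change in RNA was not tested. An exact copy of the 10-letter element was found in 0 of the 7 windows and in 7.98% of all windows. The search for near matches was chosen after the windows had been read, and a match in letters does not show that a protein binds there.

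The labelled cell type was matched by its markers: the 12 germ cell markers were all above 10 CPM and summed to 2663 to 2764 CPM after doxorubicin and 2627 to 2710 CPM in controls. Markers of other testis cells were also present, with 0 genes of any list at 0 in all libraries. The sums of the Sertoli, Leydig, and peritubular and stromal lists overlapped between the groups, at 19.2 to 27.1, 4.38 to 9.71 and 43.0 to 59.6 CPM after doxorubicin and 18.98 to 25.8, 5.88 to 8.32 and 46.4 to 55.6 CPM in controls. Of the 7 tested peritubular and stromal genes, 2 were positive and 5 negative. Pdgfra and Col1a1 lay wholly below the controls (log2 fold change -0.16 and -0.15), against 1.95% of all genes. Myh11 was at 0.79 with overlapping groups, and 0 genes of that list passed edgeR or DESeq2. The endothelial and erythroid sums overlapped as well, at 95.5 to 106.9 and 8.18 to 13.7 CPM after doxorubicin and 83.8 to 97.5 and 6.33 to 8.20 CPM in controls. Most of the endothelial sum was Pecam1, which averaged 76.5 CPM after doxorubicin and 70.7 CPM in controls. The other endothelial genes averaged 2.14 to 10.9 CPM and 2.42 to 10.3 CPM. The 4 tested erythroid genes differed in direction. Slc4a1 passed edgeR and DESeq2 with a log2 fold change of 1.28, the haemoglobin genes Hbb and Hba-a1 passed DESeq2 alone with -1.17 and -0.88 (adjusted p = 0.0242 and 0.0382), and Alas2, at -0.55, passed neither. The summed macrophage and leukocyte list did not overlap, at 4.34 to 4.98 CPM after doxorubicin and 3.75 to 4.27 CPM in controls. Of its 5 tested genes, 4 were positive and 1 (Cd163) negative. The groups overlapped in each of them, and 0 passed edgeR or DESeq2. The sum was thus higher after doxorubicin, as were Bbc3, Bax, Pmaip1 and Bcl2l11, and its part in their values was not tested. In pooled cells such as these, fewer cells of a type and less RNA per cell cannot be told apart.

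Among the 9 genes, Bbc3 stood apart: its transcripts were about 8.56-fold higher after doxorubicin, while Pmaip1, Bax and Bcl2l11 were 1.47-, 1.32- and 1.13-fold higher and the other 5 lay between 0.952-fold and 1.05-fold. In these 4 genes every treated rat lay above every control rat, against 2.77% of all genes tested (1.95% lay wholly below the controls, 4.72% in either direction). None of the 9 passed edgeR's quasi-likelihood test over all genes (Benjamini-Hochberg adjusted p below 0.05), which called 0.106% of genes higher and 0.00589% lower (0.112% in all). At an unadjusted p below 0.05 the same 4 genes were higher and 0 were lower, against 4.19% and 2.56% of all genes (6.76% in all). DESeq2 called Bbc3 and Bax higher, where it called 0.897% of all genes higher and 0.0621% lower (0.959% in all). The median log2 fold change was 0.06 over the 9 genes and -0.0047 over all genes tested. Doxorubicin rat 2 stood apart from the other treated rats for Bbc3, Pmaip1 and Bax, and values without it are given beside each.

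**Figure D1:**
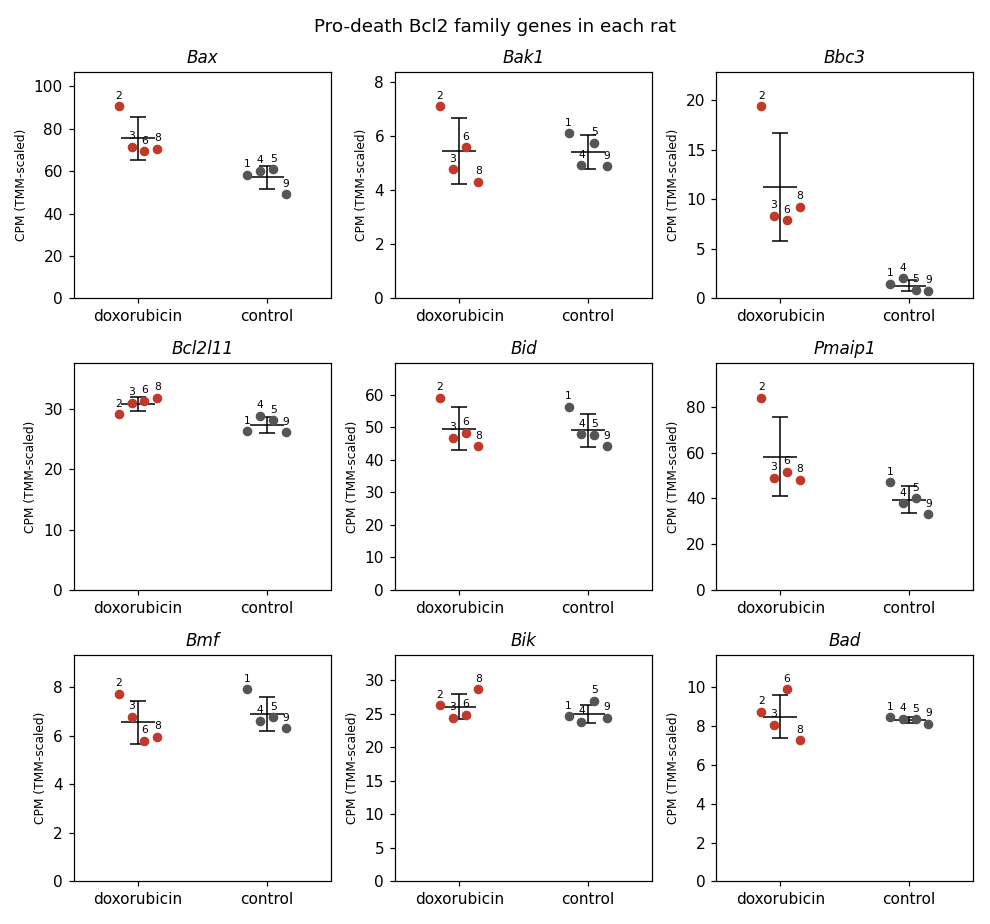
Abundance of each pro-death gene (CPM, TMM-scaled, each panel with its own axis from 0) in 4 doxorubicin rats (red) and 4 control rats (grey), with rat numbers; bars give the mean and SD. The treated rats lie above all controls for Bax, Bbc3, Bcl2l11 and Pmaip1, and rat 2 is the highest treated rat in 6 of the 9 panels.

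Bax (ENSRNOG00000020876.7) encodes the effector that moves from the cytosol to mitochondria when cells commit to death. It measured 90.5, 71.5, 69.4 and 70.5 CPM in doxorubicin rats 2, 3, 6 and 8, against 58.2, 60.1, 60.9 and 49.1 CPM in control rats 1, 4, 5 and 9. The groups did not overlap, rat 2 stood above the other treated rats and control rat 9 below the other controls. Group means were 75.5 ± 10.1 CPM after doxorubicin and 57.1 ± 5.43 CPM in controls (SD, n = 4 each). The log2 fold change was 0.40 ± 0.10 (SE), with a 95% interval from 0.19 to 0.62. This did not pass edgeR (adjusted p = 0.217) and passed DESeq2 (adjusted p = 0.00372); without doxorubicin rat 2 it was 0.30 (edgeR adjusted p = 0.103). The lowest treated value, in rat 6, had an exact Poisson 95% interval from 66.9 to 72.0 CPM and the highest control value, in rat 5, one from 58.8 to 63.0 CPM, so the gap between the groups was wider than counting error.

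Bak1 (ENSRNOG00000000485.8), the effector that sits in the mitochondrial membrane, showed no such gap. It measured 7.11, 4.78, 5.60 and 4.32 CPM in doxorubicin rats 2, 3, 6 and 8, against 6.12, 4.92, 5.76 and 4.89 CPM in control rats 1, 4, 5 and 9. The groups overlapped, and the highest and the lowest value of all 8 rats were both in treated rats. The log2 fold change was 0.01, with a 95% interval from -0.32 to 0.33 (edgeR adjusted p = 0.999), and it turned negative without TMM scaling, with limma-voom, and without doxorubicin rat 2 or 6 or control rat 4 or 9. The difference between the effectors was tested directly: log2 CPM of Bax minus that of Bak1 was 3.80 ± 0.19 after doxorubicin and 3.39 ± 0.15 in controls (SD, n = 4 each), higher by 0.41 (two-sided exact permutation p = 0.0286, and 0.0286 after adjustment over 13 such differences). This is the smallest p that 70 arrangements of 8 rats can give. With 1 rat left out its adjusted p ranged from 0.031 to 0.0571, and it missed the threshold in 6 of those 8 cases.

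Bbc3 (ENSRNOG00000062473.1) encodes PUMA, a BH3-only protein that binds all survival members and can also act on the effectors. It had 1120, 462, 331 and 512 counts in doxorubicin rats 2, 3, 6 and 8, or 19.4, 8.34, 7.89 and 9.26 CPM, against 83, 115, 46 and 33 counts in control rats 1, 4, 5 and 9, or 1.46, 2.04, 0.872 and 0.791 CPM. The groups were far apart, with the lowest treated value (rat 6, exact Poisson 95% interval 7.06 to 8.79 CPM) 3.87 times the highest control value (rat 4, 1.68 to 2.44 CPM). Rat 2 had 15.02 times the control mean, and rats 3, 6 and 8 had 6.46, 6.12 and 7.18 times it.

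The Bbc3 log2 fold change was 3.10 ± 0.42 (SE), with a 95% interval from 2.11 to 4.09. It narrowly missed the threshold in edgeR (adjusted p = 0.0726) and passed in DESeq2 (adjusted p = 4.41e-09). With the set of rat numbers (1 to 4, 5 to 9) as a block it passed edgeR (adjusted p = 0.0142), and so it did without robust fitting (0.00528) and among genes with a mean of at least 1 CPM (0.0487); limma-voom gave 0.0244. Without doxorubicin rat 2, which stood far above the other treated rats, the log2 fold change was 2.69 and passed edgeR (adjusted p = 0.00106); with any other rat left out it ranged from 2.94 to 3.41 and did not pass. Relative to each of the other 8 pro-death genes in the same library, Bbc3 was higher after doxorubicin by 2.55 (over Pmaip1) to 3.15 (over Bmf) on the log2 scale, each with a two-sided exact permutation p of 0.0286 (0.0286 adjusted over the 13 differences). These 8 differences share the Bbc3 values. With any 1 rat left out they ranged from 2.39 to 3.42, and the permutation p was again the smallest the design allows.

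**Figure D2:**
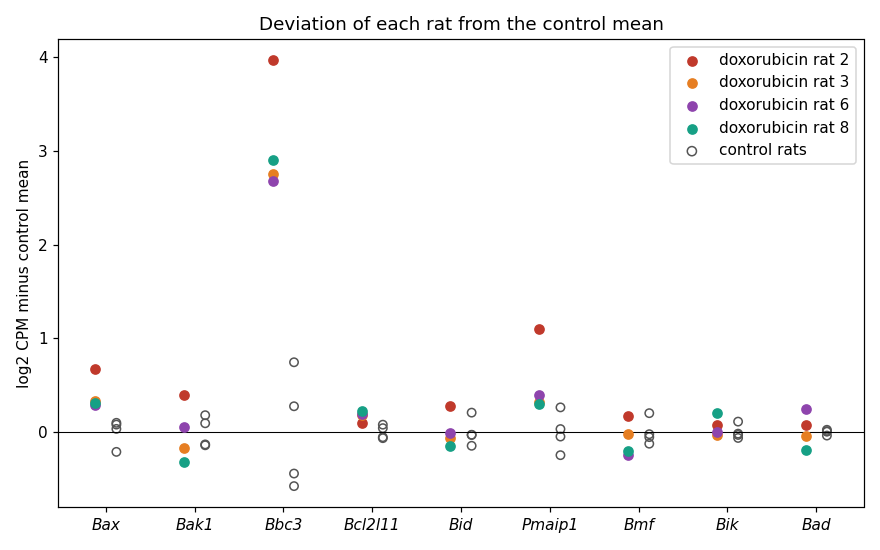
Log2 CPM (prior count of 2) of each gene in each rat minus the control mean; filled points are doxorubicin rats, coloured by rat, and open points are control rats. Bbc3 lies 2.68 to 3.97 above the control mean in the treated rats, and rat 2 deviates most for Bbc3, Pmaip1 and Bax.

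Bcl2l11 (ENSRNOG00000016551.9) encodes BIM, a BH3-only protein of the same activator class that is held on microtubules by a dynein light chain. It measured 29.1, 31.0, 31.3 and 31.8 CPM in doxorubicin rats 2, 3, 6 and 8, against 26.3, 28.8, 28.1 and 26.1 CPM in control rats 1, 4, 5 and 9. Here rat 2 was the lowest treated rat, opposite to its place for Bbc3. The lowest treated value (27.7 to 30.5 CPM, exact Poisson 95% interval) and the highest control value, in rat 4 (27.4 to 30.3 CPM), were within counting error of each other. The log2 fold change was 0.17 ± 0.05, with a 95% interval from 0.05 to 0.29, and passed neither edgeR (adjusted p = 0.424) nor DESeq2 (adjusted p = 0.189).

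Bid (ENSRNOG00000012439.3), the BH3-only protein that caspase-8 cleaves to link death receptors to mitochondria, measured 59.03, 46.8, 48.3 and 44.1 CPM in doxorubicin rats 2, 3, 6 and 8, against 56.4, 47.9, 47.8 and 44.1 CPM in control rats 1, 4, 5 and 9. The groups spanned nearly the same range. Its log2 fold change was 0.02, with a 95% interval from -0.20 to 0.23 (edgeR adjusted p = 0.994), and was negative without doxorubicin rat 2 and without control rat 9.

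Pmaip1 (ENSRNOG00000018770.4) encodes NOXA, a BH3-only protein that chiefly neutralises Mcl1. It measured 83.9, 48.9, 51.6 and 48.2 CPM in doxorubicin rats 2, 3, 6 and 8, against 47.0, 37.8, 40.01 and 33.0 CPM in control rats 1, 4, 5 and 9. Rat 2 was far above the other treated rats, whose lowest value, in rat 8 (exact Poisson 95% interval 46.4 to 50.1 CPM), lay within counting error of control rat 1 (45.2 to 48.8 CPM). The log2 fold change was 0.56 ± 0.21, with a 95% interval from 0.07 to 1.05, and passed neither edgeR (adjusted p = 0.651) nor DESeq2 (adjusted p = 0.417). Without doxorubicin rat 2 it was 0.33 (edgeR adjusted p = 0.568).

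The remaining sensitizer genes gave values that overlapped between the groups. Bmf, which encodes a BH3-only protein tied to the actin and myosin skeleton, measured 5.79 to 7.73 CPM after doxorubicin and 6.31 to 7.92 CPM in controls, a log2 fold change of -0.07 (95% interval -0.32 to 0.18). Bik, whose product resides mainly at the endoplasmic reticulum, measured 24.4 to 28.6 CPM after doxorubicin and 23.8 to 26.9 CPM in controls, a log2 fold change of 0.06 (95% interval -0.08 to 0.21). Bad, whose product is switched off by phosphorylation under growth factor signalling, measured 7.27 to 9.89 CPM after doxorubicin and 8.11 to 8.46 CPM in controls, a log2 fold change of 0.03 (95% interval -0.19 to 0.24). These 3 genes had edgeR adjusted p of 0.967, 0.943 and 0.988. Bmf turned positive without control rat 1 and Bad negative without doxorubicin rat 6. The 95% intervals of Bik, Bad, Bmf, Bid and Bak1 reached at most 0.33 above and 0.32 below 0 on the log2 scale.

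**Figure D3:**
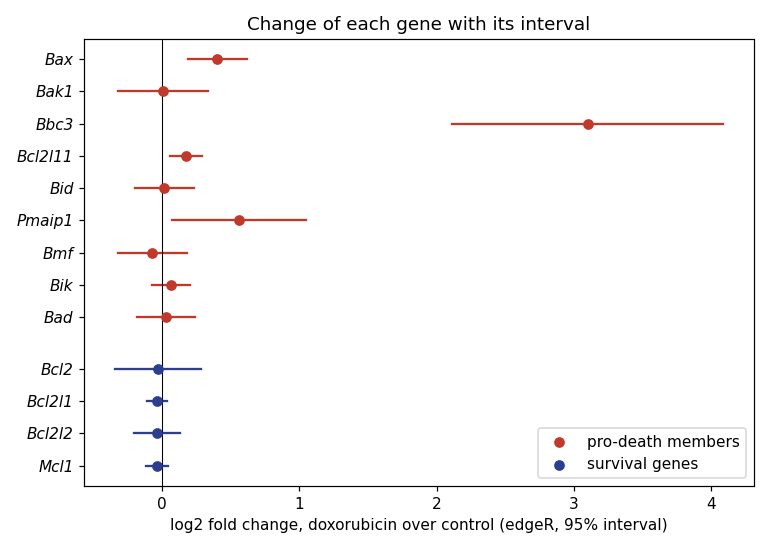
Log2 fold change, doxorubicin over control, for the 9 pro-death genes (red) and the 4 tested survival genes (blue), with 95% intervals from edgeR that are not adjusted for the number of genes. Bbc3 lies at 3.10, and the intervals of the 4 survival genes all include 0.

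Doxorubicin rat 2 had the highest treated value for 6 of the 9 genes (Bak1, Bax, Bbc3, Bid, Bmf and Pmaip1), against 32.2% of all genes tested. Its excess over the mean of the other treated rats was 2.28-fold for Bbc3, 1.69-fold for Pmaip1, 1.45-fold for Bak1, 1.28-fold for Bax, 1.27-fold for Bid and 1.25-fold for Bmf. Among the tested p53 targets outside the family, rat 2 was the highest treated rat in 16 of 23. The library of rat 2 also stood apart as a whole, by the chi-square per degree of freedom between each pair of libraries. It gave 23.3, 21.8 and 21.0 against treated rats 3, 6 and 8, which gave 6.22 to 10.6 among themselves. Against control rats 1, 4, 5 and 9 it gave 15.8, 30.1, 26.5 and 30.8. Control rat 1, the nearest of these, was the highest control for Bak1, Bid, Bmf and Pmaip1. The part of this in the excess of rat 2 was not tested. The library of rat 2 was also the deepest, at 58871000 counts. Rat 2 had the highest summed levels of the Sertoli, peritubular and stromal, and erythroid marker lists among the treated rats (27.1, 59.6 and 13.7 CPM). The most abundant gene of the erythroid list was Slc4a1, at a mean of 7.48 CPM after doxorubicin. It was the 1 positive gene of that list, and the other 3 tested were negative. Over all rats, 1 Sertoli gene was positive (Dhh, log2 fold change 0.45) and 7 were negative. Of the peritubular and stromal genes, 2 were positive (Myh11 and Des, 0.79 and 0.31) and 5 negative. With all libraries thinned to the smallest total, the log2 fold changes of Bbc3, Pmaip1 and Bax were 3.06, 0.56 and 0.40. The part of depth in the excess of rat 2 itself was not tested. The part of other cells in its values was not tested beyond the fits without this rat.

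None of the 4 tested survival genes, which oppose the pro-death genes, passed edgeR or DESeq2, and their groups overlapped. Bcl2l1, which encodes Bcl-xL, averaged 87.5 ± 1.65 CPM after doxorubicin and 89.7 ± 0.47 CPM in controls, a log2 fold change of -0.04 (95% interval -0.11 to 0.04). Mcl1, the short-lived survival protein that NOXA binds, averaged 83.4 ± 1.68 CPM after doxorubicin and 85.7 ± 2.35 CPM in controls (SD, n = 4 each), and its log2 fold change was -0.04 (95% interval -0.12 to 0.04). Bcl2 itself, at 2.05 ± 0.30 CPM after doxorubicin and 2.10 ± 0.17 CPM in controls, and Bcl2l2, which encodes Bcl-w, had log2 fold changes of -0.03 (95% interval -0.34 to 0.28) and -0.04 (95% interval -0.20 to 0.13). Bcl2 turned positive without doxorubicin rat 8 or control rat 5, and Bcl2l2 without control rat 1. In the order given, the edgeR adjusted p were 0.937, 0.941, 0.991 and 0.977. Bcl2a1 and Bcl2l10 had at most 4 counts in any library and were not tested.

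Bax was therefore also set against each survival gene within the same library. Its CPM ratio to Mcl1, relative to the control mean of that ratio, was 1.63, 1.25, 1.28 and 1.28 in doxorubicin rats 2, 3, 6 and 8, against 0.995, 1.04, 1.07 and 0.896 in control rats 1, 4, 5 and 9. Its ratio to Bcl2l1, scaled the same way, was 1.63, 1.28, 1.22 and 1.30 in those doxorubicin rats, against 1.02, 1.05, 1.06 and 0.865 in those controls. For all 4 survival genes the treated rats lay above the controls, by 0.43 to 0.44 on the log2 scale (two-sided exact permutation p = 0.0286 each, adjusted p = 0.0286 over the 13 differences). With 1 rat left out, the differences to Bcl2 and Bcl2l2 missed the threshold in 5 and 4 of 8 cases (adjusted p up to 0.0571), while those to Bcl2l1 and Mcl1 ranged from 0.34 to 0.48 on the log2 scale. These ratios share the Bax values and describe RNA, not protein.

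**Figure D4:**
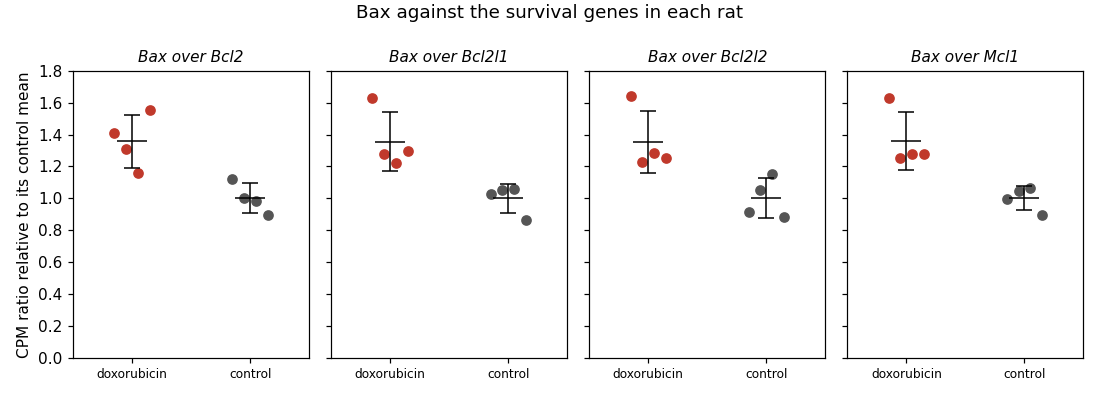
CPM ratio of Bax to Bcl2, Bcl2l1, Bcl2l2 and Mcl1 in each rat, divided by the mean of the 4 control rats; red points are doxorubicin rats, grey points control rats, and bars the mean and SD. All treated rats lie above all controls in each panel, between 1.16 and 1.64.

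Other genes of the pathway were taken from fixed lists, with 0 members past edgeR's threshold outside the p53 targets. Of 6 tested relatives of the family, 2 were positive and 4 negative, with a median log2 fold change of -0.02. By unadjusted p (0.05) 1 was lower, against 2.56% of all genes, and none passed DESeq2 (0 of 6). Bok, an effector-like relative, averaged 20.6 ± 1.11 CPM after doxorubicin and 22.7 ± 0.40 CPM in controls (log2 fold change -0.14; adjusted p by edgeR, 0.651). Bcl2l12, Bnip3l and Bcl2l14 differed by -0.14, 0.08 and 0.23 on the log2 scale (adjusted p by edgeR, 0.767, 0.784 and 0.885). In 2 of the 6 relatives, Bok and Bcl2l12, every treated rat lay below every control rat, against 1.95% of all genes. The 10 genes of the machinery downstream of the mitochondrial pore split into 5 positive and 5 negative, with a median of -0.0026. Cycs (cytochrome c), Htra2 and Apaf1, the scaffold of the apoptosome, had log2 fold changes of -0.12, -0.07 and 0.07.

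Among 16 regulators of the members, 10 were positive and 6 negative, with a median log2 fold change of 0.02. By unadjusted p (0.05), 1 was higher and 2 were lower, against 4.19% and 2.56% of all genes, and 0 passed DESeq2. Foxo3, a transcription factor that can drive Bcl2l11 and Bbc3, averaged 62.3 ± 6.60 CPM after doxorubicin and 53.3 ± 1.73 CPM in controls, with a log2 fold change of 0.23 ± 0.06 (adjusted p by edgeR, 0.322). Akt1 and Pim1, kinases that phosphorylate Bad, differed by -0.07 and -0.16 on the log2 scale (adjusted p by edgeR, 0.641 and 0.656), and Huwe1, a ubiquitin ligase of Mcl1, had one of 0.07. Of 23 tested p53 targets outside the family, 18 were positive and 5 negative, with a median of 0.50, where 47.8% of all genes were positive. In that list 3 passed edgeR and 12 passed DESeq2, all higher, against 0.106% and 0.897% of all genes. The 3 were Eda2r, Aen and Ccng1, with log2 fold changes of 2.68, 1.05 and 2.59. Sesn2, a stress-induced sestrin, had one of 1.22 (edgeR adjusted p = 0.0801).

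**Figure D5:**
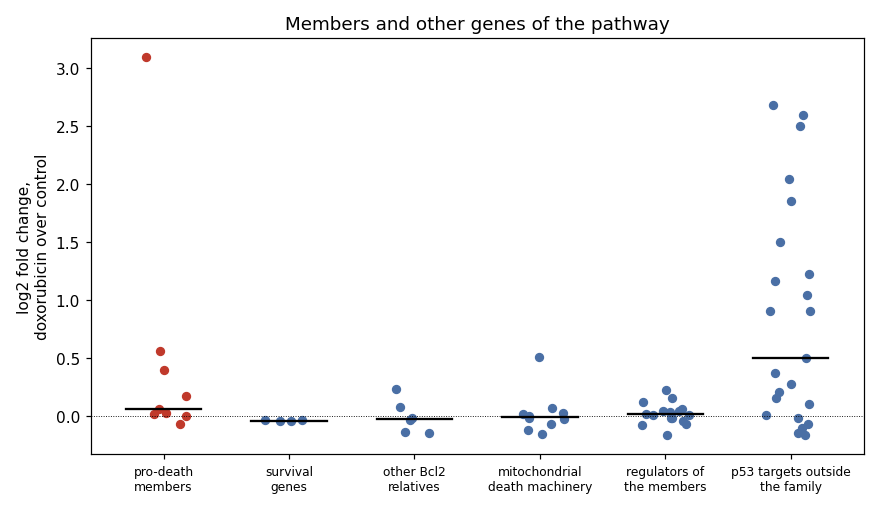
Log2 fold change, doxorubicin over control, of the tested genes of each list; each point is a gene, spread sideways for legibility, and black lines are medians. The pro-death genes (red) have a median of 0.06 with Bbc3 at 3.10, and the p53 targets outside the family have a median of 0.50.

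The genes whose profile over the 8 libraries lay nearest that of Bbc3 were sought among 13659 genes with a mean of at least 1 CPM in a group. Likeness was the root mean square difference of log2 CPM centred on the control mean, which was 2.25 for the median gene. The nearest was Abcb1b, a drug efflux pump, at 0.31. It was followed by Dnajb5 (a heat shock protein co-chaperone) at 0.42, Alox5 (5-lipoxygenase) at 0.43, Eda2r (a receptor of the TNF receptor family) at 0.45 and Kcnn4 (a calcium-activated potassium channel) at 0.46. In each of the 5, as in Bbc3, rat 2 was the highest treated rat. Abcb1b averaged 12.4 ± 5.28 CPM after doxorubicin and 1.69 ± 0.33 CPM in controls (SD, n = 4 each). These genes were picked for likeness, so it is given as a description only.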

How the data were processed

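The deposited table gives estimated counts per gene for 8 libraries, not normalized, per the file headers and the labels. Per the submitters' processing notes, kallisto 0.48.0, featureCounts, DESeq2 1.40.2, Trimmomatic, fastp 0.23.2, MultiQC 1.12 and FastQC 0.11.9 were used with build rn6. The sources used here give neither their roles nor a strand setting, which leaves overlapping and antisense genes uncertain. Between 32.5% and 33.6% of values per library were not whole (by more than 1e-06), so values were rounded. The 2356 entries without a symbol stayed in the fits. Each pair of libraries differed beyond sampling noise (chi-square per degree of freedom at least 6.22).

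Tests ran in R 4.3.3 with edgeR 4.0.16 (filterByExpr, TMM, robust glmQLFit, glmQLFTest, no covariate) on all 16976 genes kept, with Benjamini-Hochberg adjustment over them and a threshold of 0.05. The p-values set the difference between the groups against the spread between rats. Each standard error was the absolute fitted change divided by the square root of F. Differences between genes within a library used log2 CPM with a prior count of 2 and two-sided exact permutation tests over 70 arrangements, adjusted over 13 differences. Poisson intervals cover counting error only. The fit was tested on simulated counts first. DESeq2 1.42.0, limma-voom (limma 3.58.1), other scalings and filters, thinning, a block for rat numbers, and leaving out each rat were alternatives; fits within rats 1 to 4 and within rats 5 to 9 were added after seeing the data.

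The genes and lists were chosen with earlier results of these data known. Named were all list members found, the tested survival genes, up to 4 genes with the smallest p from each other pathway list, and the 5 profiles nearest the member with the largest change. The result of 1 gene that this rule names is not reported here. A planned scan of protein sequences was not run. Promoter sequences are from RefSeq, build GRCr8; no coordinates of the files' build were used.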

Additional observations from a re-analysis of the deposited data

Results flagged for a closer look

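Of 26 groups of 4 rats (the 9 pro-death genes and 4 survival genes, in treated and control rats), 3 had 1 rat far from the others. About 1 in 20, or 1.3, would be flagged by chance if the groups were independent. They were not, since the genes were measured in the same rats, so 1.3 is only a rough guide. All 3 were doxorubicin rat 2. In that rat Bbc3 stood at 19.4 CPM, against 7.89 to 9.26 CPM in the other treated rats. Its Pmaip1 stood at 83.9 CPM, against 48.2 to 51.6 CPM, and its Bax at 90.5 CPM, against 69.4 to 71.5 CPM. Bcl2l11 went the other way in the same rat, at 29.1 CPM against 31.0 to 31.8 CPM, without being flagged.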

How the results depend on the processing

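The log2 fold changes of Bbc3 (2.69 to 3.41), Bax (0.30 to 0.46), Pmaip1 (0.33 to 0.65) and Bcl2l11 (0.13 to 0.22) were positive under all 19 alternatives. The edgeR count of 0 pro-death genes called became 2 with DESeq2, 1 with limma-voom, 1 with a mean of at least 1 CPM, 1 without robust fitting, 1 with the set of rat numbers as a block, 2 within rats 5 to 9 (Bbc3 and Pmaip1), and 0 to 1 with 1 rat left out. The count of 19 over all genes became 170 with DESeq2, 53 without robust fitting, 61 with the block, 0 within rats 1 to 4, 92 within rats 5 to 9, and 1 to 62 with 1 rat left out. Bbc3 had an adjusted p of 0.0511 without TMM scaling, 0.108 without a filter, 0.0244 with limma-voom, 0.0142 with the block, 0.906 within rats 1 to 4 (log2 fold change 2.99) and 1.13e-07 within rats 5 to 9 (3.36). The cause of these changes was not tested. The fit within rats 1 to 4 held only doxorubicin rats 2 and 3 and control rats 1 and 4. That within rats 5 to 9 held only doxorubicin rats 6 and 8 and control rats 5 and 9. It thus left out doxorubicin rat 2 and the controls with the highest Bbc3 values (rats 1 and 4). Both fits rest on few rats and were added after seeing the data. The 13 differences within libraries were 10 to 12 past the threshold with 1 rat left out and 13 under other scalings.

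Log2 fold changes near 0 turned sign. Bak1 was -0.0018 without TMM scaling, -0.017 with limma-voom and -0.11 within rats 5 to 9. Within rats 1 to 4 Bmf was 0.0050 and Bcl2 0.096, and within rats 5 to 9 Bcl2l2 was 0.028. With 1 rat left out Bak1 ranged from -0.15 to 0.10, Bid from -0.080 to 0.090, Bad from -0.047 to 0.094, Bmf from -0.16 to 0.0027, Bcl2 from -0.11 to 0.058 and Bcl2l2 from -0.075 to 0.018. No paired analysis was possible because the groups share no rat number. Counting error was at most 17.4% for Bbc3, from 33 counts, and smaller for the other pro-death genes.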

Other observations

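The spread between rats differed from gene to gene. Bbc3 varied most in both groups, with a coefficient of variation of 48.8% after doxorubicin and 45.0% in controls, where control rats 1 and 4 (1.46 and 2.04 CPM) lay above control rats 5 and 9 (0.872 and 0.791 CPM). Bad varied by 13.1% after doxorubicin and by 1.83% in controls, and the counting error of its smallest count was 5.44%. The groups' difference in spread was not tested.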
